A study of Mus musculus with 12 samples.

Results

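Collagens are the main structural proteins of the extracellular matrix, and each molecule is a triple helix wound from chains that are encoded by separate genes. Fibrillar collagens pack into the banded fibrils that give tissue its strength. Basement membrane collagen, type IV, forms the sheet under epithelia and around vessels, and the other collagens decorate fibrils, anchor membranes or form finer networks. In the liver, fibrillar collagens are known as products of stellate cells and portal fibroblasts, and their increase is the hallmark of scarring. The collagen chain genes were taken here as all genes whose symbol is Col, a number, a and a number, read from the probe sets that the platform annotation pairs with exactly 1 symbol. This gave 44 genes out of 19938 on the array: 11 fibrillar chains, 6 basement membrane chains and 27 others. For 42 of them there was 1 probe set, and for Col6a5 and Col6a6 the brighter of 2 was used.

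The livers came from 12 C57Bl/6J mice, an inbred strain, that were 10 weeks old when an adenovirus was given by vein. In 6 mice the virus carried an sh scramble sequence (a short hairpin RNA without an intended target) and in 6 it carried sh Grb14, which is directed at Grb14, the gene of an adapter protein that inhibits the insulin receptor. All animals were therefore exposed to virus, and the promoter that drives the hairpins is not given in the sources used here. The livers were taken in the fed state at day 7, and total RNA of each was measured on 1 Affymetrix whole-transcript array. The question put to these arrays is which genes change in liver upon loss of Grb14 message.

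Values are log2 expression, and a change is the mean of the sh Grb14 mice minus that of the sh scramble mice, given with its standard error (SE). A gene passed the test when its limma p, adjusted over all genes by the Benjamini-Hochberg method, was under 0.05. Grb14 itself had a mean of 10.15 ± 0.063 (SD, n = 6) in the sh scramble group. In the sh Grb14 group its mean was 8.24 ± 0.13 (SD, n = 6), and no value overlapped. Array medians over all probe sets lay between 7.06 and 7.17. Over the tested genes alone they were 7.52 to 7.60 in sh scramble and 7.67 to 7.74 in sh Grb14 livers, without overlap. The defining hepatocyte gene Alb lay between 13.88 and 13.99 in all mice, on a scale that runs to 14.24. Of all genes 65.3% passed (25.8% of all upward, 39.5% of all downward), with a median change of −0.10. The quartiles of all changes were −0.25 and 0.16. The labels give no batch, so a batch that followed the groups cannot be told apart from them.

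A small group of collagen chains rose strongly while more of the family had small falls. Of the 44 genes, 11 rose, 24 fell and 9 did not pass the test. The share that rose, 25%, was close to the 25.8% of all genes, so the number of rises says nothing particular about collagens. At least 1.5-fold rises were found for 9 chains (20.5%), against 11.5% of all genes, and at least 2-fold rises for 5 (11.4%), against 6.37%. The 9 were Col1a1, Col1a2, Col3a1 and Col5a2 among the fibrillar chains, Col4a1 and Col4a2 of the basement membrane, and Col6a3, Col8a1 and Col12a1 among the others. In the opposite direction 54.5% of chains fell, against 39.5% of all genes, but only Col18a1 (2.27% of the chains) fell at least 1.5-fold, against 7.26%. The groups did not overlap for 10 chains that were higher (background 20.3%) and 4 that were lower (background 20.8%). The median change of the 44 chains was −0.21. With arrays centred on their medians over the tested genes, 10 chains were higher and 31 lower, where 19.4% of all genes were higher and 64.9% lower. With cyclic loess between arrays, 12 were higher and 19 lower.

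**Figure D1:**
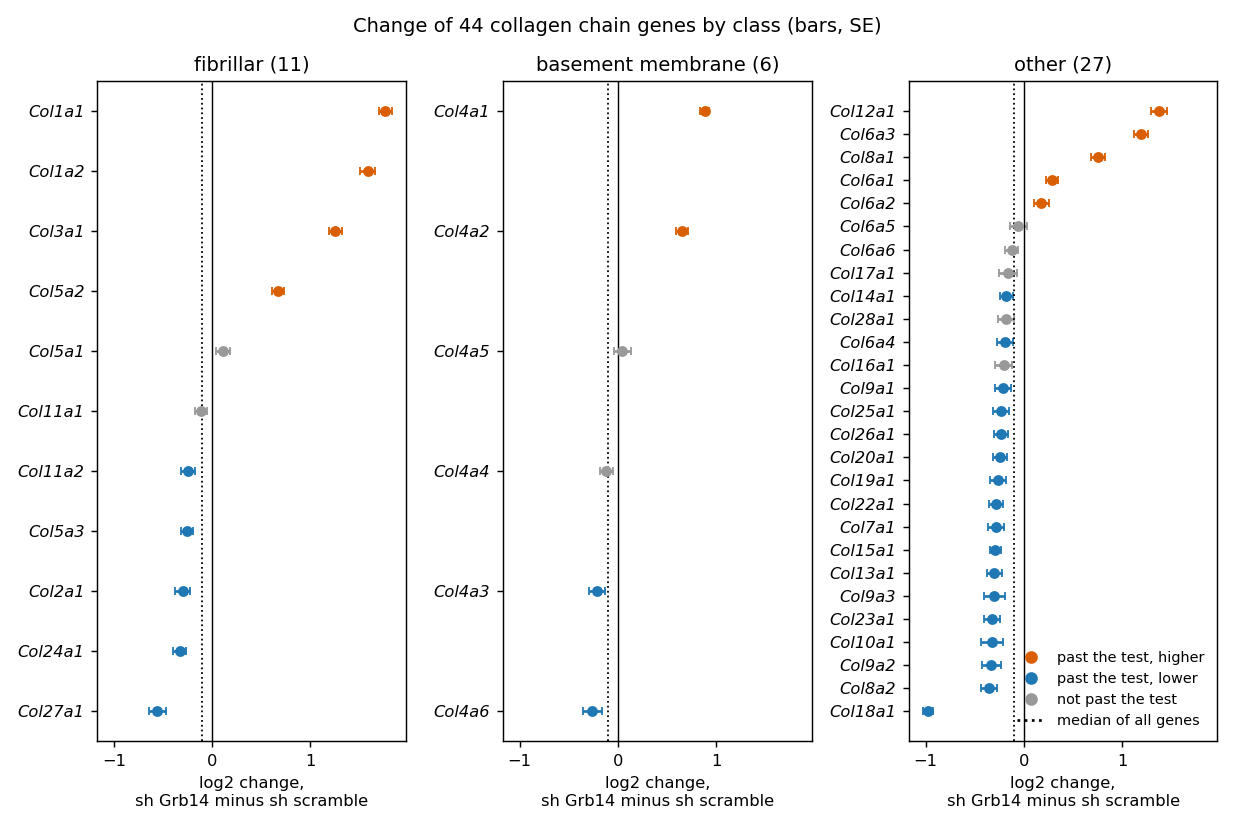
Log2 change (sh Grb14 minus sh scramble, 6 mice each) of the 44 collagen chain genes in 3 panels by class, with SE bars and the median change of all genes (−0.10) as a dotted line. A few chains in each class lie far to the right, up to 1.76 for Col1a1, while most others sit between 0 and −0.36. Col27a1 (−0.56) and Col18a1 (−0.97) lie further to the left.

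Stretches before the annotated starts of 4 of these rising chains and of Col18a1 are shown with the motifs found in them. The stretches run from 30 to 115 bases and lie at different places, so the lines alone do not allow a comparison between chains. The windows are those of RefSeq (GRCm38.p6), 35 of the 44 genes had one, and Col1a1, Col5a2 and Col12a1 are named only. Both strands of the 250 bases before each start were searched for CCAAT (the box bound by NF-Y), TATAAA (the core promoter box), GGGCGG (an Sp1 box), TGANTCA (an AP-1 site) and CAGAC (an element bound by SMAD proteins). None of these words contains another. Capitals mark the matches in the lines below, also where the match is on the opposite strand.
Col1a2 (chr6:4505408-4505522, + strand): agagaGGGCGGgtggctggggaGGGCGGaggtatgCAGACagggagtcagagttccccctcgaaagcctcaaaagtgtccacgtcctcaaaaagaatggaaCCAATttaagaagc
Col3a1 (chr1:45311408-45311483, + strand): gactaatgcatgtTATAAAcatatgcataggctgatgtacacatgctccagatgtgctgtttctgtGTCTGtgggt
Col8a1 (chr16:57754752-57754812, - strand): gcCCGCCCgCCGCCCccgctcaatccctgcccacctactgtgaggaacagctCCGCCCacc
Col4a2 (chr8:11312760-11312789, + strand): cccgaggagctccCCAATttgttggcgctg
Col18a1 (chr10:77166556-77166600, - strand): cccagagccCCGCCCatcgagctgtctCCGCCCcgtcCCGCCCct

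Col1a2 carried GGGCGG at 2 places in its line, followed by single matches to CAGAC and, nearer to the start, CCAAT. Col3a1 showed TATAAA and then CAGAC, and its window held no match to GGGCGG. The stretch of Col4a2 begins inside a GGGCGG match 48 bases before the start, which is therefore not marked. Another lies 192 bases before that start. Outside the printed stretches CAGAC was also found 228 bases before the start of Col4a2, 239 before that of Col3a1 and 103 before that of Col8a1. Col8a1 had a further GGGCGG 170 bases before its start. Among the 6 chains that rose at least 1.5-fold and had a window, CAGAC was found in 5, CCAAT in 3, GGGCGG in 3, TATAAA in 1 and TGANTCA in 0. In all 32851 windows the shares were 42.2%, 33.8%, 32.7%, 12.4% and 6.75%. In the 38 collagen windows they were 44.7%, 34.2%, 57.9%, 13.2% and 2.63%. Counted by gene, as for the rising chains, the motifs were found in 17, 13, 21, 5 and 1 of the 35 collagen genes with a window. Chains that fell, such as Col27a1, Col7a1 and Col9a2, were among those with CAGAC. A link between any motif and the changes was not tested. Short words like these occur often, so a match describes letters and names no bound factor. Col18a1, the chain that fell most, has a second annotated start, and its 3 GGGCGG matches shown stand before the start at the gene's outer end. The same window held a CCAAT match 210 bases before that start, outside the printed stretch. The window of the inner start held a CAGAC match and no match to GGGCGG. Which start was used in these livers was not tested.

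Among the fibrillar chains, those of types I and III and 1 chain of type V rose. Of 11 chains 4 were called higher, 5 lower and 2 neither (median change −0.11). Col1a1 and Col1a2 encode the chains of type I collagen, the main component of scar fibrils. Col1a1 ranged from 8.36 over a median of 8.54 to 8.64 in sh scramble livers and from 10.09 over 10.30 to 10.44 in sh Grb14 livers. The 2 groups were far apart, and the change of 1.76 (SE 0.066) was a 3.40-fold rise (limma adjusted p = 7.37e-13). Its exact two-sided permutation test over the 924 ways to divide the mice gave p = 0.00216, which is the lowest possible value. Col1a2 was at 8.22, 8.31 and 8.60 (lowest, median, highest) in sh scramble livers and at 9.69, 9.95 and 10.12 in sh Grb14 livers. It rose 3.0-fold (log2 1.59, SE 0.077; limma adjusted p = 1.73e-11), again without overlap.

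Type III collagen forms the fine reticular fibres of the liver. Col3a1, its sole chain gene, had a smaller measured rise than the type I chains, a difference that was not tested. It was at 8.20, 8.37 and 8.51 in sh scramble livers and at 9.40, 9.65 and 9.73 in sh Grb14 livers. The rise was 2.38-fold (log2 1.25, SE 0.066; limma adjusted p = 4.91e-11). Its neighbour on chromosome 1, Col5a2, encodes a chain of type V collagen, which starts fibrils and sets their width. Col5a2 was at 6.93, 6.97 and 7.07 in sh scramble livers and at 7.48, 7.71 and 7.77 in sh Grb14 livers, a 1.59-fold rise (log2 0.67, SE 0.061; limma adjusted p = 4.83e-08). Col5a1, which encodes the partner of that chain, differed by 0.11 (SE 0.070) and did not reach the threshold (limma adjusted p = 0.180; range over the alternatives 0.0457 to 0.963). Centring the arrays on the medians of the tested genes turned the sign of Col5a1 to −0.0389.

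The remaining fibrillar chains were lower or did not pass. Col27a1, a fibrillar chain best known from cartilage, was at 8.57, 8.69 and 8.92 in sh scramble livers and at 7.90, 8.13 and 8.42 in sh Grb14 livers, so the groups did not overlap. It fell by 0.56 (SE 0.088; limma adjusted p = 3.54e-05), a 1.47-fold difference just short of the 1.5-fold line, beyond which only Col18a1 lay. Col24a1 fell by 0.33 (SE 0.065) without overlap. Col2a1, the cartilage fibril chain, fell by 0.30 (SE 0.076), Col5a3 by 0.26 (SE 0.066) and Col11a2 by 0.24 (SE 0.073), all with overlapping groups. Col11a1 changed by −0.11 (SE 0.064), which did not pass. On the other side of the line, the smallest rises above 1.5-fold were those of Col4a2 (1.57-fold) and Col5a2, and the next rise below it was Col6a1 (1.22-fold).

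**Figure D2:**
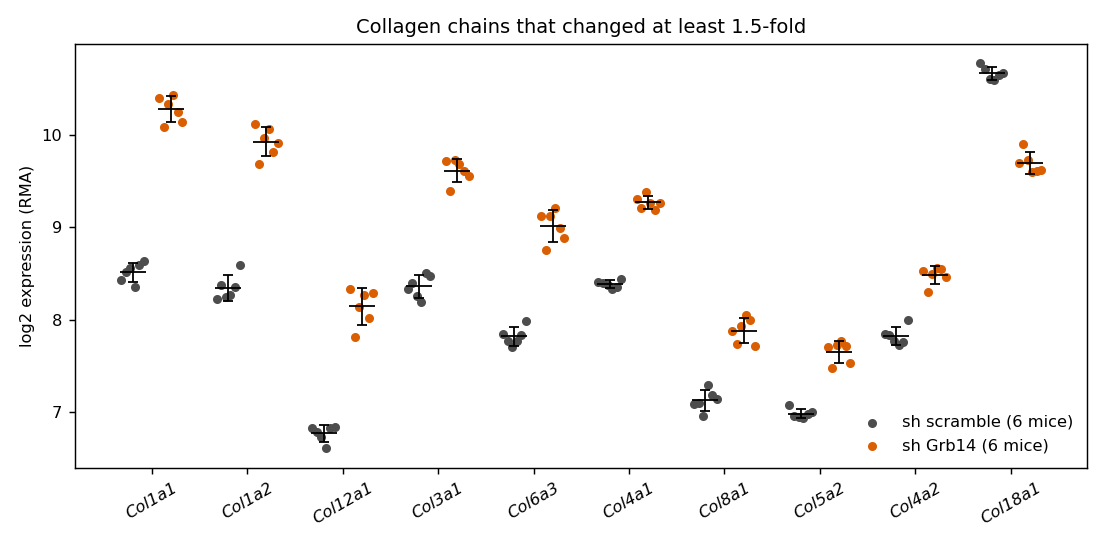
Log2 expression of the 10 collagen chains that changed at least 1.5-fold, with 1 point per mouse (grey, sh scramble; orange, sh Grb14; 6 each) and black marks for the mean and SD. The groups do not overlap for any of the 10 genes, and Col18a1 is the single one that is lower in sh Grb14 livers.

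In the basement membrane class the ubiquitous pair of type IV chains rose and the pairs with restricted expression did not. Of 6 chains 2 were called higher, 2 lower and 2 neither (median change −0.04). Col4a1 and Col4a2 encode the chains of the type IV molecule found in nearly all basement membranes and lie next to each other on chromosome 8, transcribed in opposite directions. Col4a1 was at 8.34, 8.39 and 8.44 in sh scramble livers and at 9.19, 9.26 and 9.38 in sh Grb14 livers. It rose 1.84-fold (log2 0.88, SE 0.044; limma adjusted p = 2.50e-11) and had the smallest spread between sh scramble mice of all 44 chains (SD 0.039). Col4a2 was at 7.73, 7.81 and 8.0 in sh scramble livers and at 8.30, 8.51 and 8.56 in sh Grb14 livers, a 1.57-fold rise (log2 0.66, SE 0.059; limma adjusted p = 4.53e-08). The CCAAT printed above for Col4a2 lies 32 bases before its annotated start, and the window of Col4a1 holds another CCAAT 145 bases before its own.

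The other type IV chains, known from kidney and other specialised membranes, showed small changes. Col4a3 fell by 0.21 (SE 0.086; limma adjusted p = 0.0384) and Col4a6 by 0.26 (SE 0.098; limma adjusted p = 0.0272), both with overlapping groups. Both calls depended on single mice: the count of falls in this class ranged from 0 to 3 when single mice were left out, with 0 without sh scramble replicate 2, without sh Grb14 replicate 3 or without sh Grb14 replicate 6, and 1 without sh scramble replicate 1 or 6 or sh Grb14 replicate 1 or 2. Col4a4 and Col4a5 changed by −0.12 (SE 0.070) and 0.04 (SE 0.085) and did not pass. The sign of Col4a5 turned without sh scramble replicate 5 (−0.00669) and with arrays centred on the tested genes (−0.10).

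Among the 27 other chains 5 were called higher, 17 lower and 5 neither (median change −0.23). The beaded filament collagen type VI, a web around cells that links them to fibrils, held 3 of the 5 rises. Col6a3, the long chain that completes the molecule, was at 7.71, 7.80 and 7.99 in sh scramble livers and at 8.75, 9.06 and 9.21 in sh Grb14 livers. Its groups were well separated, a 2.29-fold rise (log2 1.19, SE 0.075; limma adjusted p = 4.25e-10). Col6a1 rose by 0.29 (SE 0.061; limma adjusted p = 6.32e-04), also without overlap, and Col6a2 by 0.18 (SE 0.075; limma adjusted p = 0.0482). The call of Col6a2 was lost in 12 of 20 alternatives (adjusted p 0.0217 to 0.697). Col6a4 fell by 0.19 (SE 0.082), a call lost in 10 alternatives, and Col6a5 and Col6a6 had changes of −0.06 and −0.12 that did not pass. The second probe sets of Col6a5 and Col6a6 gave 0.04 and −0.03, neither past the test.

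Col12a1 had the largest change of the 44 chains outside type I collagen. It encodes a fibril-associated collagen with interrupted helices (FACIT), which sits on type I fibrils and is known from tissue under tension. Col12a1 was at 6.61, 6.81 and 6.84 in sh scramble livers and at 7.82, 8.20 and 8.33 in sh Grb14 livers, a 2.59-fold rise (log2 1.37, SE 0.082; limma adjusted p = 2.25e-10). It was the sole FACIT to rise, since 7 of the 9 fell and Col16a1 changed by −0.20 without passing (limma adjusted p = 0.0501; range over the alternatives 0.00129 to 0.114). Col14a1, a FACIT that coats fibrils, fell by 0.18 (SE 0.068; limma adjusted p = 0.0310; range 2.10e-04 to 0.101). The falls of the other FACIT genes ran from 0.21 for Col9a1 to 0.33 for Col9a2. The call of Col9a1 was lost in 8 of 19 alternatives (adjusted p up to 0.0923) and that of Col9a3 in 3 of 20 (up to 0.0543).

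Col8a1 rose while its partner Col8a2 fell. Type VIII collagen is a short-chain network collagen of vessel walls and of the membrane behind the cornea. Col8a1 was at 6.96, 7.12 and 7.30 in sh scramble livers and at 7.71, 7.90 and 8.06 in sh Grb14 livers, a 1.69-fold rise (log2 0.76, SE 0.072; limma adjusted p = 8.44e-08). Col8a2 fell by 0.36 (SE 0.084; limma adjusted p = 0.00162), with overlapping groups. Col10a1, a short-chain collagen of growth plate cartilage, fell by 0.32 (SE 0.11).

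Col18a1 showed the largest fall of the family. It encodes a multiplexin, a proteoglycan-like collagen of basement membranes whose end fragment is endostatin, and it is known to be made by hepatocytes. Col18a1 was at 10.59, 10.66 and 10.78 in sh scramble livers and at 9.60, 9.66 and 9.91 in sh Grb14 livers. It fell by 0.97 (SE 0.054), 1.97-fold lower (limma adjusted p = 8.24e-11), with no overlap. Its relative Col15a1 fell by 0.29 (SE 0.057; limma adjusted p = 3.05e-04), also with no overlap. Measured hepatocyte markers moved the same way in these livers: 8 of 9 fell (88.9%, against 39.5% of all genes), with a median change of −0.29. The largest falls were those of Hpd (1.6) and Tat (1.38), and Alb, at 0.04, did not pass. The mean level of the 9 markers per mouse was 13.28 to 13.37 in sh scramble and 12.50 to 12.80 in sh Grb14 livers. Their part in the fall of Col18a1 was not tested.

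The transmembrane and remaining chains moved in a narrow band. Col13a1, Col23a1 and Col25a1, which span the cell membrane, fell by 0.30, 0.32 and 0.23, and Col17a1, of the hemidesmosome, changed by −0.16 and did not pass. Col7a1, the anchoring fibril chain of skin, fell by 0.29 (SE 0.080) and Col26a1 by 0.23 (SE 0.074). Col28a1 changed by −0.18 without passing. Leaving aside Col18a1 and Col27a1, the other 22 falls of the family were all between 0.18 and 0.36.

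The size of the small falls differed between mice. In each mouse the 24 chains that fell were averaged as differences from their sh scramble means. These chains were picked by their fall in these same mice, so only the spread within each group is read here. Among sh Grb14 mice, replicates 4 and 5 stood highest, at −0.14 each, and the other 4 lay between −0.45 and −0.33. Replicates 4 and 5 were also the sh Grb14 arrays with the highest median over all probe sets (7.17 each, against 7.09 to 7.10). Over the tested genes alone their medians were 7.70 each, within the 7.67 to 7.74 of the other 4, and replicate 1, with the highest, had a mean of −0.40. The sh scramble arrays were all lower on that measure, at 7.52 to 7.60. Among sh scramble mice replicate 2 stood highest (0.16, array median 7.16), and it was the highest of its group for 14 of the 24 chains. The part of array brightness in the falls was not tested beyond rescaling. With arrays centred on their medians over all probe sets, the 23 falls under 1.5-fold all passed, and with cyclic loess between arrays 18 of them did.

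For the 9 chains that rose at least 1.5-fold, the same average lay between 0.93 and 1.24 in sh Grb14 mice and between −0.07 and 0.11 in sh scramble mice. The 9 were picked by their rise in these same mice, so the gap between the groups was given in advance. Replicate 2 was the lowest sh Grb14 mouse for 7 of the 9 chains and replicate 4 the highest for 5. Among sh scramble mice replicate 6 was the highest for 6 of the 9 and replicate 4 the lowest for 6. In each group, several of these chains were thus highest or lowest in the same animal. Within groups the SD of single chains had a median of 0.11 in sh scramble and 0.16 in sh Grb14 livers. The large rises and the fall of Col18a1 passed in each of the 19 or 20 alternatives in which they were tested, whichever mouse was left out.

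**Figure D3:**
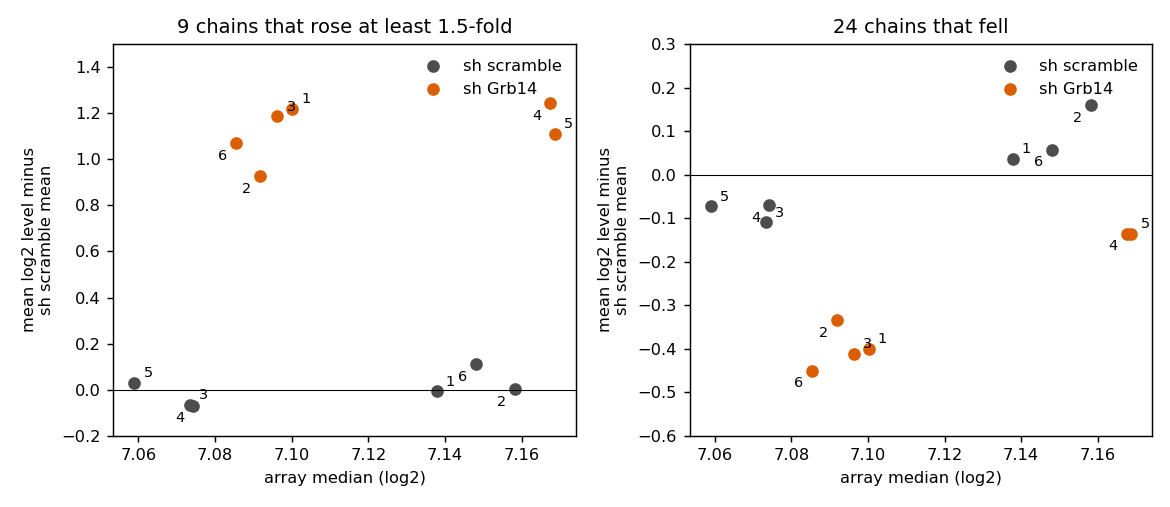
Mean log2 difference from the sh scramble mean for the 9 chains that rose at least 1.5-fold (left) and the 24 chains that fell (right), plotted against each array's median over all probe sets, with 1 numbered point per mouse. The rises lie between 0.93 and 1.24 in all 6 sh Grb14 mice, while the falls are smallest (−0.14) in sh Grb14 replicates 4 and 5, whose array medians are highest. The chains were picked by the group difference in these same mice, so the gap between the groups was given in advance.

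For 8 of 11 pairs of chains of the same collagen type, the measured changes differed past the test. Differences of change were tested with a two-sided exact permutation test over the mice and adjusted over the pairs. The pairs were a part of those possible and were chosen with earlier results known. Pairs of other genes were not tested, so the count says nothing particular about collagens. Probe sets can differ in how steeply they respond, so a difference does not show that the chains themselves changed unequally. Col6a3 exceeded its partners Col6a1 and Col6a2 by 0.90 (SE 0.077) and 1.02 (SE 0.076) respectively, and Col5a2 exceeded Col5a1 by 0.56 (SE 0.061). The gap between Col8a1 and Col8a2 was 1.11 (SE 0.076). Col4a1 exceeded Col4a2 by 0.23 (SE 0.049). For these 5 pairs the groups did not overlap (adjusted exact p = 0.00475 each, from the smallest exact p of 0.00216).

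Smaller differences passed as well. Col1a1 exceeded Col1a2 by 0.18 (SE 0.053; adjusted exact p = 0.0179), and Col4a5 exceeded Col4a6 by 0.31 (SE 0.062; adjusted exact p = 0.00794). Col11a1 lay above Col11a2 by 0.13 (SE 0.040; adjusted exact p = 0.0179). For 3 pairs the difference did not pass: 0.12 (SE 0.054) for Col9a1 and Col9a2 (adjusted exact p = 0.0582), 0.11 (SE 0.058) for Col6a1 and Col6a2 (adjusted exact p = 0.100) and −0.10 (SE 0.064) for Col4a3 and Col4a4 (adjusted exact p = 0.165).

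**Figure D4:**
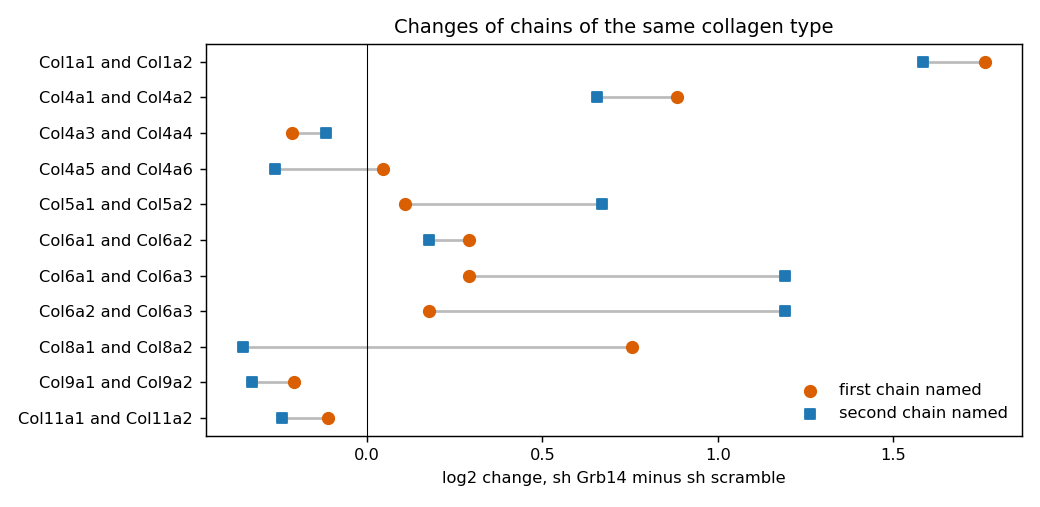
Log2 change (sh Grb14 minus sh scramble) of both chains in 11 pairs of the same collagen type, the first named as an orange circle and the second as a blue square. The type I chains lie close together at 1.76 and 1.59, whereas Col8a1 and Col8a2 lie on opposite sides of 0, at 0.76 and −0.36.

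The genes that modify and fold collagen chains were more often higher than lower. Among the 17 with a value, 10 were called higher, 4 lower and 3 neither (median change 0.17). Of all genes 25.8% passed higher and 39.5% lower. With arrays centred on the tested genes, 7 of the list were higher and 6 lower. Plod2, a lysyl hydroxylase that prepares the cross-links of scar collagen, was at 5.59, 5.73 and 6.02 in sh scramble livers and at 7.36, 7.96 and 8.08 in sh Grb14 livers, a change of 2.07 (SE 0.11). Its sh scramble values lay near the lower quartiles of the arrays (5.69 to 5.83). Crtap, a partner of prolyl 3-hydroxylase, rose by 0.997 (SE 0.074), Serpinh1, the collagen chaperone HSP47, by 0.90 (SE 0.078), and P4ha1, a subunit of prolyl 4-hydroxylase, by 0.70 (SE 0.082). In the same livers all 9 measured markers of monocytes and recruited macrophages rose, with mean levels per mouse of 7.22 to 7.44 in sh scramble and 9.30 to 9.70 in sh Grb14 livers.

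Processing and cross-linking enzymes split. Among 12, 7 were called higher, 4 lower and 1 neither (median change 0.33). With quantile normalisation or cyclic loess, 2 were lower. Lox, lysyl oxidase, which cross-links fibrils, was at 5.83, 6.16 and 6.35 in sh scramble livers and at 8.18, 8.70 and 8.96 in sh Grb14 livers, a rise of 2.52 (SE 0.12; limma adjusted p = 8.14e-12). Lox, Vcan, Mmp12 and Tspan8 had their lowest sh scramble values under the highest of the arrays' lower quartiles, and without a detection call no fold is given for them. Tgm2, a transglutaminase, rose by 1.61 (SE 0.041) and Pcolce, the enhancer of procollagen C-proteinase, by 0.97 (SE 0.055). Bmp1, that C-proteinase itself, fell by 0.57 (SE 0.046), without overlap. Loxl2 was not analysed here.

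Most genes of collagen breakdown rose. Among 14, 12 were called higher, 1 lower and 1 neither, and the median change was 1.09. Plat, tissue plasminogen activator, rose by 4.13 (SE 0.17), Mmp12, the macrophage elastase, by 3.84 (SE 0.13), and Mmp13, the main interstitial collagenase of mice, by 3.27 (SE 0.099). Mmp13 was at 6.16, 6.50 and 6.73 in sh scramble livers and at 9.55, 9.71 and 10.04 in sh Grb14 livers. Mmp2, a gelatinase that also cleaves type IV collagen, rose by 1.47 (SE 0.11). Markers of macrophages, which are known to make several of these proteases, rose in the same livers as given above, Gpnmb by 4.79 and Lgals3 by 2.80 (median of the 9, 2.22). Their part in these rises was not tested.

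The inhibitors of breakdown moved both ways. Timp1, the inducible inhibitor of metalloproteinases, rose by 2.84 (SE 0.11), from 6.15, 6.61 and 6.96 to 9.07, 9.48 and 9.61. Timp4 rose by 0.65 (SE 0.14), with overlapping groups, and Reck, a membrane-bound inhibitor, fell by 0.59 (SE 0.066). In all, 3 of 6 inhibitors were called higher, 1 lower and 2 neither (median 0.33).

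Collagen receptors included strong rises. Lair1, an inhibitory collagen receptor of leukocytes, rose by 1.93 (SE 0.088), Ddr1, a receptor kinase of epithelial and inflammatory cells, by 1.72 (SE 0.067), and Itga2, the integrin subunit alpha 2, by 1.51 (SE 0.083). Ddr2, the receptor kinase of mesenchymal cells, rose by 0.28 (SE 0.076; limma adjusted p = 0.00403), with overlapping groups. Of 8 measured receptors 6 rose, 1 fell and 1 did not pass (median 0.35).

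Matrix proteins that accompany the chains were compared by the structure they belong to. Of 17 fibril-associated proteins 12 rose, 2 fell and 3 did not pass (median 0.31). Thbs1, a thrombospondin that activates TGF-beta, rose by 3.18 (SE 0.092), Tnc, tenascin C of healing tissue, by 2.54 (SE 0.094), Vcan, the proteoglycan versican, by 2.07 (SE 0.081), and Sparc, a collagen-binding protein, by 1.31 (SE 0.061). Of 15 basement membrane partners 10 rose, 2 fell and 3 did not pass (median 0.28). Nid1, nidogen, which links type IV collagen to laminin, rose by 2.48 (SE 0.044), and Lamc1, the common laminin gamma chain, by 1.30 (SE 0.066). Lama3, a laminin chain of epithelial anchoring, fell by 1.16 (SE 0.055).

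Of 23 profibrotic signals and receptors, 17 were called higher, 2 lower and 4 neither (median 0.35). With arrays centred on the tested genes, 11 were higher and 4 lower. Tgfb1, the gene of TGF-beta 1, the best known inducer of collagen genes, was at 8.45, 8.67 and 8.74 in sh scramble livers and at 10.04, 10.15 and 10.20 in sh Grb14 livers. It rose 2.87-fold (log2 1.52, SE 0.055; limma adjusted p = 4.96e-13). Tgfb3 rose by 1.36 (SE 0.072) and Ccn2, connective tissue growth factor, by 1.45 (SE 0.14). Against these lists, 25.8% of all genes passed higher and 39.5% lower. The same centring raised the falls to 4 among the fibril-associated proteins and to 2 each among the receptors and the inhibitors of breakdown.

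**Figure D5:**
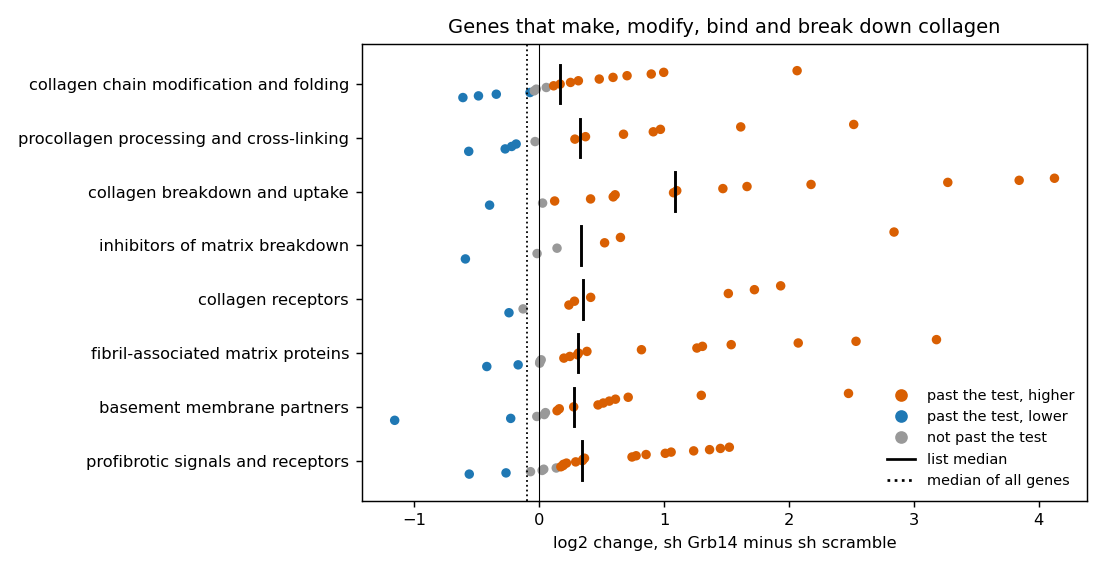
Log2 change (sh Grb14 minus sh scramble) of the measured genes of 8 lists around collagen, 1 point per gene, coloured by call, with a black bar at each list's median and a dotted line at the median of all genes (−0.10). The medians lie between 0.17 and 0.35 except for collagen breakdown and uptake, at 1.09.

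The markers of the cells that could supply collagen RNA did not move as 1 group. In bulk liver, more cells of a type and more RNA per cell cannot be told apart. Of 13 stellate cell markers 4 rose (30.8%), 6 fell (46.2%) and 3 did not pass. These shares were near those of all genes, 25.8% higher and 39.5% lower, which also stand against the marker counts below. The mean level of the stellate list per mouse overlapped between groups (8.68 to 8.92 in sh scramble, 8.66 to 8.98 in sh Grb14). Acta2, the smooth muscle actin of activated stellate cells and of vessels, rose by 2.46 (SE 0.11), whereas Colec11 fell by 1.10 (SE 0.050).

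Among 10 portal fibroblast markers 5 rose, 1 fell and 4 did not pass, with mean levels of 7.35 to 7.49 in sh scramble and 7.62 to 7.88 in sh Grb14 livers. Thy1 rose by 1.74 (SE 0.075) and Cd34, also a vessel marker, by 1.08 (SE 0.11). They were the only 2 of the 10 to rise at least 1.5-fold, and the median change of the list was 0.15. The higher mean levels of this list thus rest largely on these 2 genes. Sinusoidal endothelial markers, of cells that make type IV collagen, had 4 of 10 higher and 6 lower, with mean levels that overlapped (9.61 to 9.78 and 9.57 to 9.72). Lyve1 rose by 1.14 and Clec4g fell by 0.85. Cholangiocyte markers had 3 of 7 higher and 4 not past the test, led by Tspan8 (0.69) and Epcam (0.48), with mean levels of 6.75 to 6.95 and 6.97 to 7.21.

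Markers of cells outside the liver lobule were checked as well. Of 6 mesothelial markers 4 fell, among them Upk3b by 0.55 and Gpm6a by 0.31, and 2 did not pass. Of 6 chondrocyte markers, Hapln1 rose by 2.50 (SE 0.15), Matn1 fell by 0.33 and 4 did not pass, while Col2a1, the defining chondrocyte collagen, fell as given above. Mean levels per mouse were 7.28 to 7.51 and 6.98 to 7.34 for the mesothelial list and 6.97 to 7.22 and 7.25 to 7.43 for the chondrocyte list. The higher mean level of the chondrocyte list rests on Hapln1 alone, since the median change of that list was −0.16. The part of any of these cell types in the changes of the collagen chains was not tested.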

How the data were processed

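Each of the 12 livers gave 1 Affymetrix array. Per the labels' protocols, 100 ng of Trizol-extracted RNA was labelled with biotin. The authors deposited log2 values of 35556 probe sets. The submitters' processing notes name RMA and Partek without a version or role, and the genome build of the probes is not given in the sources used here. The number of arrays limits the precision, and no detection call was made. The labels do not say whether mice shared cages or days.

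The 19938 genes with a single-symbol probe set (highest mean where a gene had several) were fitted with limma 3.58.1 in R 4.3.3. The settings were lmFit and eBayes with trend, without covariate or filter. The fit was tested on simulated data in which few genes changed, equally in both directions. In the arrays 65.3% of all genes passed, a setting that the simulation did not cover. No set test was run. Levels of different genes were not compared. The members, the 16 gene lists and the partner pairs were chosen with earlier results of these data known. All chains may be named, with group ranges for changes of at least 1.5-fold. From each list the 3 largest changes past the test (markers, 2) and Serpinh1, Lox, Loxl2, P4ha1, Plod2, Bmp1, Mmp2, Mmp13, Timp1, Tgfb1, Ddr1, Ddr2 and Sparc are named. The alternatives were other scalings, no intensity trend, a filter on dim genes, mean probe sets, all probe sets, a 1.5-fold line and leaving out each mouse.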

Additional observations from a re-analysis of the deposited data

Results flagged for a closer look

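In 88 groups of 6 mice (44 chains in 2 groups), 1 mouse stood apart from the others of its group by Dixon's criterion. The Col4a6 value of sh scramble replicate 2 was 7.17, while the other 5 lay between 6.65 and 6.80, a gap of 0.704 of the range, above the critical value for 6 samples. Chance alone sets apart a mouse in about 5% of groups. This mouse was also the highest of its group for 14 of the 24 chains that fell, and without it the fall of Col4a6 was −0.19 and no longer past the test (limma adjusted p = 0.0631; 8.68e-04 to 0.0707 over the alternatives).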

How the results depend on the processing

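The 9 rises of at least 1.5-fold and the fall of Col18a1 kept their call under every alternative they were tested in, and 27 of the 44 chains kept theirs throughout. Against 11 rises and 24 falls, leaving out single mice gave 10 to 11 rises and 17 to 28 falls (fibrillar 4 rises and 5 falls throughout; basement membrane 2 rises throughout and 0 to 3 falls; others 4 to 5 rises and 12 to 20 falls). Requiring 1.5-fold left 1 fall in all, 0 fibrillar, 0 basement membrane and 1 other, with 3 rises among the others. Among genes above the median level, where 21 chains remain, 11 fell in all, 3 fibrillar, 0 basement membrane and 8 others, with 3 rises among the others. The basement membrane falls numbered 1 with all probe sets tested and 0 with cyclic loess. Cyclic loess and centring on the tested genes were chosen after seeing the data. The latter moved the median change of all genes to −0.25 and gave 10 rises and 31 falls. Signs turned for Col4a5 (−0.10, and −0.00669 without sh scramble replicate 5, with a range up to 0.0933 when single mice were left out) and Col5a1 (−0.0389) with that centring, and for Col6a5 (0.0024) with cyclic loess, none of them past the test. No paired analysis was possible because the labels give the mice of the 2 groups no shared numbers.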
